A study of Homo sapiens with 6 samples.

Results

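YME1L1 and 9 genes of its pathway were followed through the knockdown of the long non-coding RNA LINC01133 in 12Z cells. The 10 genes (YME1L1, OMA1, OPA1, AFG3L2, SPG7, PHB2, STOML2, TIMM17A, PRELID1 and DELE1) are 10 of the 60660 genes of the count tables, and all 10 were among the 15155 genes with enough counts to be tested. YME1L1 was chosen by its measured log2 fold change between knockdown and control cells, which was about as low as that of LINC01133 itself, so its change is given as a description with no test. The other 9 were chosen for what their proteins do: partner proteases, substrates, scaffold proteins and the stress relay of OMA1 and DELE1.

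12Z is an established epithelial cell line from an endometriosis lesion. In the control group (3 libraries) the cells received a non-targeting siRNA, and in the knockdown group (3 libraries) they received siRNA LINC01133a at 10 nM. All cells were lysed 72 h after transfection, and polyadenylated RNA was sequenced in read pairs. A single targeting siRNA was sequenced, so the loss of LINC01133 and other effects of that siRNA cannot be told apart by the design.

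The inner mitochondrial membrane is policed by membrane-bound proteases that remove damaged or surplus proteins and cut others to change their function. YME1L1 is the i-AAA protease, an ATP-driven enzyme whose catalytic part faces the intermembrane space. AFG3L2 and SPG7 (paraplegin) build the m-AAA protease on the matrix side. OMA1 is a protease that is activated by loss of membrane potential and other stress. YME1L1 and OMA1 both cut OPA1, the dynamin-like protein that fuses inner membranes and shapes cristae. PHB2 is a subunit of the prohibitin ring and STOML2 a related scaffold that holds YME1L1 in a larger complex. TIMM17A, a part of the import channel, and PRELID1, a carrier of phosphatidic acid, are degraded by YME1L1. DELE1 is cut by OMA1 and then activates the kinase HRI (EIF2AK1) of the integrated stress response. These are activities of proteins, and RNA levels alone were measured here.

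The targeted RNA was checked first. LINC01133 had 859, 726 and 808 raw counts in control cells, and 153, 135 and 122 in knockdown cells. Normalized counts (counts scaled to a common library size) were 823 ± 12.8 (SD, n = 3) and 133 ± 4.68 (SD, n = 3), a log2 fold change of -2.63, which leaves 16.2% of the control level. The libraries held 27742562 to 37551194 counts on genes. The labelled epithelial identity was compared with marker genes. The keratins KRT8, KRT18 and KRT19 were abundant in all libraries, whereas EPCAM had a mean normalized count of 13.6 in control and 16.9 in knockdown cells, and the mesenchymal markers VIM, THY1 and DCN were abundant too. In knockdown cells 5 of the 6 epithelial markers and all 5 mesenchymal markers passed the test as lower, against 25.0% of all tested genes, with CDH1 falling from 412 to 102 normalized counts. In the paper's own follow-up measurements the loss of CDH1 was seen again, but the reduction of KRT7 and KRT19 was not. There CDH2 was lower with LINC01133a and unchanged with the less efficient siRNA LINC01133b. PTPRC and VWF were at mean normalized counts of 20.4 to 25.4, and PECAM1 and CD68 had 0 to 3 counts per library, though 81.6% of the exonic bases of CD68 are shared with another annotated gene. The part of these marker changes in the results for the protease genes was not tested.

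The sequences of siRNA LINC01133a and of its matches are shown because YME1L1 holds a long match to it. The strands are printed 5′ to 3′ as given by the study, with capitals on the bases that lie in the run shared with YME1L1.
Antisense strand: ucCAUUCUCAGGUAACuucaa
Sense strand: gaaGUUACCUGAGAAUGgatt

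The sites are printed 5′ to 3′ on the strand of the RNA (GENCODE v44 transcripts, GRCh38), with capitals on the bases that pair without interruption with the antisense strand. The search covered 19 bases of the strand without its overhang, and positions are counted from its 5′ end.
LINC01133: GAAGTTACCTGAGAATGGA
YME1L1: cctGTTACCTGAGAATGac
N4BP2: aatGTTACCTGAGAATGtt
ZNF892: tgAGTTACCTGAGAATGtg
LAS1L: cattTTACCTGAGAATGGA
MAP3K12: gctGTTACCTGAGAATGat

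The LINC01133 site, with all 19 bases paired, lies at chr1:159976669-159976687 on the plus strand and in 3 of the 5 transcripts of the gene. The YME1L1 site lies at chr10:27116322-27116340 on the minus strand, in the coding sequence of exon 16 of 19 of the canonical transcript YME1L1-202. It is in 3 of the 8 annotated YME1L1 transcripts. Its run of 14 paired bases spans positions 3 to 16 of the antisense strand, and 5 of the 19 bases are mismatched. The N4BP2 site is at chr4:40120043-40120061 on the plus strand, in the coding sequence of exon 9 of 18, and its run covers the same 14 positions. The ZNF892 site is at chr2:95216421-95216439 on the plus strand, in the 3′ UTR of exon 5 of 5, with a run of 15 bases from position 3 to position 17. The LAS1L and MAP3K12 sites lie only in transcripts other than the canonical transcript, a set that includes a retained-intron transcript of LAS1L and a nonsense-mediated decay transcript of MAP3K12. All 6 site sequences are identical to the reference genome at these positions.

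YME1L1 (ENSG00000136758.19) lies at chr10:27110111-27155266 on the minus strand. Raw counts per control library were 13837, 12236 and 13359, and those per knockdown library were 2532, 2019 and 1960. Normalized counts were 13099, 13784 and 13844 in control cells and 2146, 1961 and 2224 in knockdown cells. Every knockdown library was below every control library, and this gap is part of the change for which YME1L1 was chosen. The means were 13575 ± 414 (SD, n = 3) and 2110 ± 135 (SD, n = 3), so 15.5% of the control level remained. On the log2 scale the change was -2.69 (standard error 0.049, 95% interval -2.79 to -2.58), the fifth lowest of all tested genes. This interval takes no account of the choice of YME1L1 for its change. YME1L1 was an abundant RNA in control cells, at a higher mean than 97.8% of tested genes. As in any bulk sample, fewer cells with the RNA and less RNA per cell cannot be told apart.

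The length of uninterrupted pairing with the siRNA was then computed for every tested gene with annotated transcripts (15121 genes). This search was set up after the values of YME1L1 were known, so it is a description. Over all annotated transcripts, 6 genes (0.0397%) had a run of 14 bases or more, namely the 6 genes shown above. In the canonical transcript (the Ensembl representative of each gene), 3 genes (0.0198%) had such a run: YME1L1, N4BP2 and ZNF892. All 3 were lower in knockdown cells by a fold change over 1.5, as were 6.43% of all tested genes, and YME1L1 was itself chosen for its fall. N4BP2 went from 987 ± 73.1 to 162 ± 21.5 normalized counts, a log2 fold change of -2.61. ZNF892, a low RNA, went from 71.0 to 22.0, a log2 fold change of -1.68. LAS1L and MAP3K12 had log2 fold changes of 0.020 and -0.0032. Their sites lie outside the canonical transcript, as does that of LINC01133, which fell by a log2 fold change of -2.63. Levels of single transcripts were not measured, so the part of the site's place in these values was not tested.

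Shorter runs were more frequent. With a limit of 13 bases, 9 genes qualified in the canonical transcript and 4 of them were lower by a fold change over 1.5. The 6 genes with runs of exactly 13 bases had log2 fold changes from -0.60 (UBR1) to 0.31 (FRMD5). With a limit of 12 bases, 9 of 39 genes were lower by a fold change over 1.5 and 0 were higher, against 6.43% and 5.30% of all tested genes. Looser limits of 11, 10 and 9 bases gave 22 of 176, 65 of 647 and 180 of 2394 genes lower at that fold. Those higher numbered 4, 17 and 90. The counts of lower genes all include N4BP2, ZNF892 and YME1L1, which was chosen for its fall, so they are given with no test. Over all annotated transcripts, the sense strand of the siRNA had runs of at most 13 bases, in 8 genes, and 0 of these changed by a fold over 1.5. In the canonical transcript 3 genes had a sense run of 13 bases. The other 9 members had antisense runs of only 7 to 9 bases in any transcript. A 7-base match to the antisense seed (positions 2 to 8) was found in transcripts of OMA1, AFG3L2, SPG7 and STOML2 but not of YME1L1, and 42.5% of the searched genes hold such a match. A 7-base match to the sense seed was found in transcripts of YME1L1 and AFG3L2, and in 24.6% of the searched genes. The part of the siRNA match in the fall of YME1L1 was not tested, since no library with another siRNA against LINC01133 was analysed here.

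**Figure D1:**
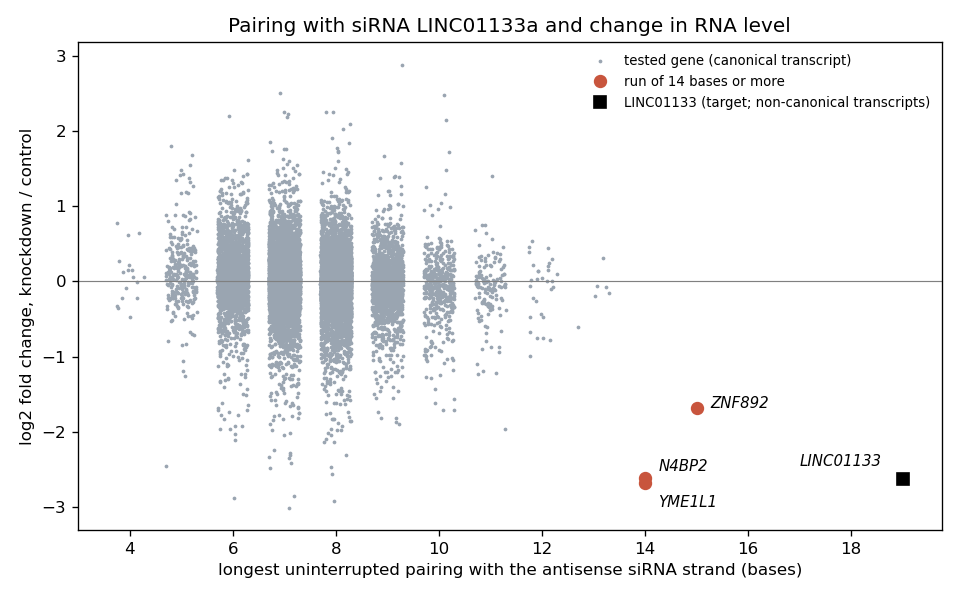
Longest uninterrupted pairing of each tested gene's canonical transcript with the antisense strand of siRNA LINC01133a (x axis, bases, with small random shifts within each whole number for the small grey points) against its log2 fold change, knockdown over control (y axis). The 3 genes with 14 bases or more in the canonical transcript (YME1L1, N4BP2 and ZNF892, large points) lie between -2.69 and -1.68. LINC01133 (square) is placed at the 19 bases of the transcripts that hold its site.

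The genes whose profile over the 6 libraries was most like that of YME1L1 were named by the root mean square difference of centred log2 CPM (counts scaled to library size), among genes whose normalized counts averaged 100 or more. Since YME1L1 was chosen for a fall about as large as that of LINC01133, the near place of LINC01133 follows from that choice. LINC01133 was nearest, at 0.060, and N4BP2, a gene for a protein that binds BCL3, was next at 0.095. KCNAB1, a potassium channel beta subunit, followed at 0.174, DIRAS3, a small GTPase, at 0.213, and AQP1, a water channel, at 0.232. Their log2 fold changes were -2.56 for KCNAB1, -2.35 for DIRAS3 and -2.88 for AQP1. The longest antisense runs in any transcript were 14 bases in N4BP2, 9 in KCNAB1, 7 in DIRAS3 and 7 in AQP1. The part of pairing in these falls was not tested.

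The genes beside YME1L1 on chromosome 10 changed far less. PDSS1, which makes the side chain of coenzyme Q, was higher by a log2 fold change of 0.21 (edgeR adjusted p = 0.028), and ACBD5, a peroxisomal protein, by 0.24 (edgeR adjusted p = 0.0011). MASTL, a mitotic kinase encoded on the opposite strand that shares 443 exonic bases with YME1L1, was lower by -0.11 (edgeR adjusted p = 0.028). ABI1, ANKRD26 and LRRC37A6P did not pass the test, with values of 0.050, 0.10 and -0.60. The call of PDSS1 was lost without control library 3 (adjusted p = 0.088), knockdown library 2 (0.101) or knockdown library 3 (0.075), all by edgeR. That of MASTL was lost without knockdown library 1 (adjusted p = 0.176), 2 (0.052) or 3 (0.054), also by edgeR.

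Of the 9 other members, 3 were higher in knockdown cells (SPG7, PHB2 and DELE1), 2 were lower (AFG3L2 and TIMM17A) and 4 did not pass the test (OMA1, OPA1, STOML2 and PRELID1). The 5 called members are 55.6% of the 9, where 48.3% of all tested genes passed at an adjusted p under 0.05, 23.3% as higher and 25.0% as lower. None of the 9 reached a fold change over 1.5 as well, which 11.7% of all tested genes did. The groups did not overlap for 7 of the 9, against 57.3% of all tested genes (28.3% with the knockdown libraries above and 29.0% with them below). Their median log2 fold change was 0.079, against 0.0032 for all tested genes. These shares lie near the background. The count of higher members was 1 without knockdown library 2.

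AFG3L2, the subunit that can form an active m-AAA protease on its own, had normalized counts of 3565, 3631 and 3652 in control cells and 2565, 2498 and 2689 in knockdown cells. All knockdown libraries were below all control libraries. The log2 fold change was -0.49 (standard error 0.039, edgeR adjusted p = 4.8e-07), so that 71.5% of the control level was left. SPG7, which needs AFG3L2 to form a protease, had 1325, 1263 and 1330 in control and 1388, 1507 and 1473 in knockdown cells. It was higher in every knockdown library, by 0.16 on the log2 scale (standard error 0.046, edgeR adjusted p = 0.014). This call was lost without knockdown library 2 (edgeR adjusted p = 0.070). The partner subunits thus moved apart, and the ratio of AFG3L2 to SPG7 raw counts within a library, which depends on no scaling between libraries, went from 2.77 ± 0.095 (SD, n = 3) to 1.78 ± 0.104 (SD, n = 3) without overlap.

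OMA1, the stress-activated protease, had the lowest level of the 10 genes, with normalized counts of 238, 207 and 212 in control and 244, 258 and 265 in knockdown cells. The knockdown libraries were all above the control libraries, but the log2 fold change of 0.22 (95% interval 0.022 to 0.41) did not pass the adjusted test (edgeR adjusted p = 0.063). Without control library 1 the value was 0.28 and the call was made (edgeR adjusted p = 0.035). The ratio of YME1L1 to OMA1 raw counts was 55.1, 66.5 and 65.2 in control and 8.79, 7.59 and 8.38 in knockdown libraries. This ratio carries the change for which YME1L1 was chosen.

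OPA1, the shared substrate of both proteases, had 5992, 6250 and 6314 normalized counts in control and 5832, 5846 and 5786 in knockdown cells. The knockdown libraries were all slightly lower, with a log2 fold change of -0.087 (95% interval -0.165 to -0.0098, edgeR adjusted p = 0.060). Without control library 1 it was -0.11 and was called (edgeR adjusted p = 0.029). The cutting of OPA1 into long and short protein forms cannot be read from these counts.

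DELE1, the messenger that OMA1 releases, had 1335, 1178 and 1314 normalized counts in control and 1671, 1670 and 1754 in knockdown cells. The lowest knockdown library was well above the highest control library. The log2 fold change of 0.41 (standard error 0.051, edgeR adjusted p = 2.2e-05) was the largest rise among the members.

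Of the scaffold genes, PHB2 had 4605, 4367 and 4624 normalized counts in control and 4903, 4912 and 4927 in knockdown cells. It was higher in each knockdown library, by 0.12 on the log2 scale (standard error 0.037, edgeR adjusted p = 0.019). The call was lost without knockdown library 1 (edgeR adjusted p = 0.058) or knockdown library 2 (0.056). STOML2 had 1899, 1718 and 1995 in control and 1897, 1921 and 1908 in knockdown cells. The groups overlapped, and the log2 fold change was 0.028 (95% interval -0.082 to 0.138, edgeR adjusted p = 0.68). PHB1, the other prohibitin subunit, fell from 6628 ± 130 to 5298 ± 314 normalized counts (log2 fold change -0.32, edgeR adjusted p = 5.1e-05). The ratio of PHB1 to PHB2 raw counts went from 1.46 ± 0.038 to 1.08 ± 0.066 (SD, n = 3 each) without overlap.

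Of the substrate genes, TIMM17A had 3221, 3338 and 3235 normalized counts in control and 2841, 2810 and 2833 in knockdown cells. All knockdown libraries were below all control libraries, and the log2 change was -0.21 (standard error 0.036, edgeR adjusted p = 0.00039). TIMM17B, its paralog in the same import channel, rose from 521 ± 16.0 to 806 ± 15.8 normalized counts (log2 fold change 0.63, edgeR adjusted p = 9.5e-07). The ratio of TIMM17A to TIMM17B raw counts went from 6.27 ± 0.287 to 3.51 ± 0.078 (SD, n = 3 each). PRELID1 had 4515, 4143 and 4365 normalized counts in control and 4737, 4746 and 4272 in knockdown cells. The groups overlapped through knockdown library 3, and the log2 fold change was 0.079 (95% interval -0.025 to 0.183, edgeR adjusted p = 0.19). Without that library it was 0.13 and was called (edgeR adjusted p = 0.040). Its ratio to TRIAP1, the protein that PRELID1 works with, was 5.01 ± 0.405 in control and 5.39 ± 0.291 in knockdown cells and overlapped.

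The partner pairs were picked after the values had been seen, and the ratios are given with no test.

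To compare the genes with each other, CPM values were divided by the length of the canonical transcript in kilobases. On this scale PRELID1 was highest in control cells, at 109 ± 4.71 per kilobase, followed by PHB2 at 102 ± 3.21 and YME1L1 at 100 ± 3.05 (SD, n = 3 each). PHB2 and YME1L1 overlapped. Next came TIMM17A at 61.1, STOML2 at 42.3, AFG3L2 at 35.4, OPA1 at 29.7, SPG7 at 13.1, DELE1 at 8.03 and OMA1 at 3.64. None of these neighbours overlapped in their control libraries. In knockdown cells the level of YME1L1 was 15.6 ± 0.997 per kilobase, which moved it from rank 3 to rank 7 of the 10 genes and into the range of SPG7 (14.6 ± 0.613), whose libraries it overlapped. AFG3L2, at 25.3 per kilobase, was then above YME1L1, and the ratio of YME1L1 to AFG3L2 raw counts went from 3.75 ± 0.069 to 0.816 ± 0.028. Other transcripts of a gene differ in length, so these levels hold for the canonical length alone.

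**Figure D2:**
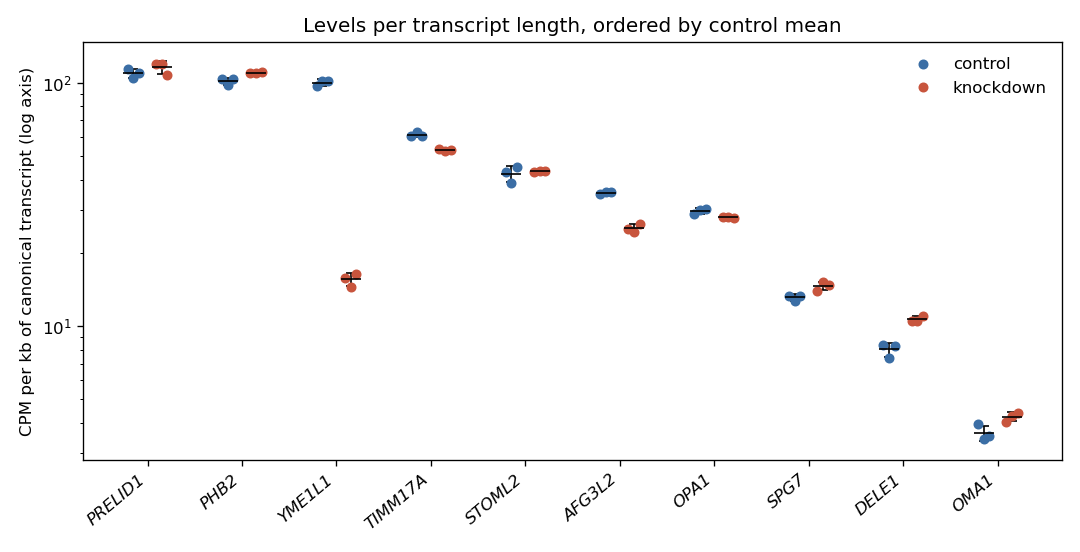
Level of each member as CPM per kilobase of canonical transcript (y axis, log scale) in control (blue) and knockdown (red) libraries, ordered by the control mean, with bars at the mean ± SD of 3 libraries. YME1L1 goes from 100 to 15.6, while each of the other genes changes by a fold under 1.5.

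Another 90 genes of the pathway, in 8 lists, were examined in the same fit, and 88 had enough counts to be tested. Of these, 26 were higher, 20 lower and 42 not called. The share called was 52.3%, close to the 48.3% of all tested genes, and the median log2 fold change was -0.0094. With a fold change over 1.5 as well, 6 were higher and 0 lower, against 5.30% and 6.43% of all tested genes. Without knockdown library 1 the count of lower genes at that fold was 1. For the genes named below, the 3 with the largest change among the called genes of a list were taken, and further genes were named after their values were seen.

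Of the 14 other mitochondrial proteases, 3 were higher, 3 lower and 8 not called (42.9% called, against 48.3% of all tested genes). The median log2 change was -0.045. The 2 catalytic subunits of the inner membrane peptidase, which cuts presequences in the intermembrane space, went opposite ways. IMMP1L rose from 224 ± 11.7 to 304 ± 2.71 normalized counts (log2 fold change 0.44, edgeR adjusted p = 0.00060), and IMMP2L fell from 113 ± 9.38 to 83.9 ± 9.84 (-0.42, edgeR adjusted p = 0.019). The call of IMMP2L was lost without control library 3 (edgeR adjusted p = 0.070) or knockdown library 3 (0.072). LACTB, a filament-forming serine protease of the intermembrane space, fell by 0.36 on the log2 scale (edgeR adjusted p = 1.5e-05). PARL, the rhomboid protease that sits in a complex with YME1L1 and STOML2, had mean normalized counts of 85.2 in control and 64.8 in knockdown cells and was not called (edgeR adjusted p = 0.053). In the annotation 47.2% of its exonic bases are shared with another gene on the same strand, where reads are not counted for either gene.

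Of the 10 other scaffolds, adaptors and substrates, 3 were higher, 5 lower and 2 not called, with a median of -0.081. In all, 80% were called, against 48.3% of all tested genes (23.3% higher and 25.0% lower), and no test of the list was made. MAIP1, which escorts the calcium channel subunit SMDT1 past the m-AAA protease, fell from 597 ± 34.1 to 459 ± 49.3 normalized counts (log2 fold change -0.38, edgeR adjusted p = 0.0014). Its counts are incomplete, since 27.2% of its annotated exonic bases are shared with another gene on the same strand. PHB1 fell as given above. PRELID3A, a phospholipid carrier related to PRELID1, rose from 101 ± 7.65 to 126 ± 4.43 (0.33, edgeR adjusted p = 0.032). Its call was lost without either control library 1 or 2 or any single knockdown library (edgeR adjusted p up to 0.110). Without knockdown library 1 or 2, the count of higher genes in this list was 0, and without control library 1 it was 1. MRPL32, a ribosomal protein that the m-AAA protease matures, had a log2 fold change of -0.17 (edgeR adjusted p = 0.0085).

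Of the 14 fusion and fission genes, 3 were higher, 4 lower and 7 not called (50% called, against 48.3% of all tested genes). The median was -0.073. MFN2 and MFN1, the mitofusins that fuse outer membranes, both fell. MFN2 went from 7054 ± 111 to 5561 ± 106 normalized counts (log2 fold change -0.34, edgeR adjusted p = 4.1e-06) and MFN1 had a log2 fold change of -0.22 (edgeR adjusted p = 0.00027). MIEF2, a receptor for the fission dynamin, rose from 43.5 to 45.1 normalized counts in the control libraries to 57.3 to 78.8 in the knockdown libraries (0.66, edgeR adjusted p = 0.0061), at a fold change over 1.5. MTFR2, a fission regulator, rose by a log2 fold change of 0.37 (edgeR adjusted p = 4.3e-05). DNM1L, the fission dynamin itself, had a log2 fold change of 0.020 and was not called.

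Of the 11 MICOS genes and partners, which form cristae junctions, 2 were higher, 0 lower and 9 not called, with a median of 0.087. That is 18.2% called, against 48.3% of all tested genes. CHCHD3, a MICOS subunit, rose from 3136 ± 76.9 to 4472 ± 57.6 normalized counts (log2 fold change 0.51, edgeR adjusted p = 1.5e-07). MTX2, an outer membrane partner, rose by 0.23 (edgeR adjusted p = 0.0020). IMMT, the core subunit of MICOS, was not called at -0.066.

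Of the 12 genes of TIM23 import, 11 were tested, with 4 higher, 3 lower and 4 not called and a median of -0.024. This makes 63.6% called, against 48.3% of all tested genes. PAM16 had too few counts. The related genes DNAJC15 and DNAJC19 went opposite ways, while of the paralogs GRPEL1 and GRPEL2 only GRPEL2 was called, as higher. DNAJC15 rose from 80.0 ± 14.5 to 117 ± 3.90 normalized counts (log2 fold change 0.54, edgeR adjusted p = 0.0062), while DNAJC19, the related J-protein of the import motor, fell from 1679 ± 46.0 to 1262 ± 6.06 (-0.41, edgeR adjusted p = 3.2e-06). TIMM23, the channel that TIMM17A and TIMM17B join, fell by 0.38 on the log2 scale (edgeR adjusted p = 2.0e-06).

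Of the 8 genes of cardiolipin synthesis, 1 was higher, 1 lower and 6 not called (25% called, against 48.3% of all tested genes). The median was 0.13. TAFAZZIN, which remodels cardiolipin, rose from 428 ± 23.2 to 585 ± 37.4 normalized counts (log2 fold change 0.45, edgeR adjusted p = 0.00016). LCLAT1, an acyltransferase that acts on cardiolipin, fell from 1225 ± 52.9 to 971 ± 3.66 (-0.33, edgeR adjusted p = 6.6e-05). Without control library 2 or 3 the count of higher genes in this list was 2. Of the 4 matrix chaperones, 0 were higher, 2 lower and 2 not called (50% called), with a median of -0.10. HSPE1, the partner of the chaperonin HSPD1, fell by 0.30 (edgeR adjusted p = 0.012) and DNAJA3, a J-protein, fell by 0.12 (edgeR adjusted p = 0.032). Both calls were lost without knockdown library 2 (edgeR adjusted p = 0.058 for each) or knockdown library 3 (0.061 and 0.132), and that of DNAJA3 also without control library 1 or 2 or knockdown library 1 (0.058 to 0.073).

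Of the 17 genes of the integrated stress response, in which DELE1 acts, 16 were tested. Of these, 10 were higher, 2 lower and 4 not called, at a median log2 change of 0.24. The share higher can be set beside the 23.3% of all tested genes, and the count was 8 or 9 with any library left out. This list was chosen with earlier results of these data known, so the comparison is a description. ATF4, the central transcription factor, was called as higher at a log2 fold change of 0.16 (edgeR adjusted p = 0.014), though its groups overlapped. CHAC1, an ATF4 target that degrades glutathione, had 28.4, 27.0 and 22.8 normalized counts in control and 125, 166 and 79.4 in knockdown cells. The knockdown libraries varied among themselves but were all above the control libraries, and the log2 change was 2.25 (standard error 0.264, edgeR adjusted p = 1.3e-05).

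SESN2, a stress-induced inhibitor of mTORC1, rose from 160 ± 15.4 to 321 ± 29.6 normalized counts (log2 fold change 1.00, edgeR adjusted p = 4.2e-06). ATF3 rose by a log2 fold change of 0.82 (edgeR adjusted p = 3.0e-06) and TRIB3, a pseudokinase that damps the response, by 0.51 (edgeR adjusted p = 2.3e-05). ASNS, asparagine synthetase, had only 8, 2 and 5 raw counts in control and 26, 24 and 19 in knockdown cells (log2 fold change 2.09, edgeR adjusted p = 0.00029). In the annotation 49.3% of its exonic bases are shared with another gene on the same strand, so its counts are incomplete. Of the upstream kinases, EIF2AK1 (HRI), to which DELE1 binds, fell by 0.12 (edgeR adjusted p = 0.0099), EIF2AK2 (PKR) fell by 0.26 (edgeR adjusted p = 9.0e-05) and EIF2AK3 (PERK) rose by 0.19 (edgeR adjusted p = 0.0040). DDIT3 (CHOP) and GDF15 were not called, at log2 fold changes of 0.30 and 0.54 (edgeR adjusted p = 0.071 and 0.060). FGF21 had too few counts. Without knockdown library 1 the count of lower genes in this list was 1.

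**Figure D3:**
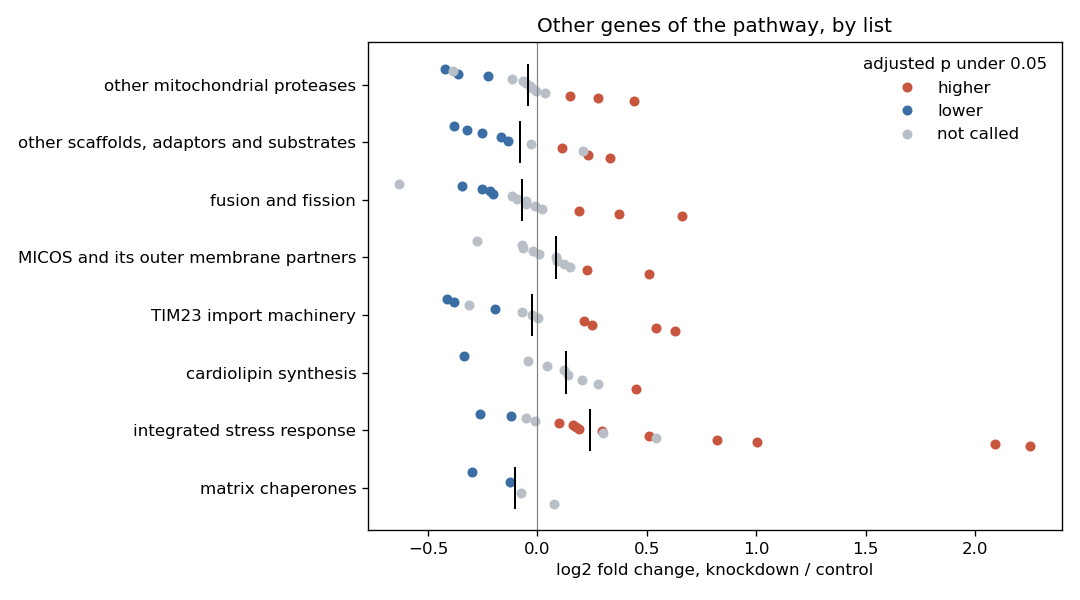
Log2 fold change, knockdown over control (x axis), of the 88 tested genes in 8 pathway lists (rows), with red points for genes called as higher, blue for lower and grey for not called at an adjusted p under 0.05, and black bars at the list medians. The medians run from -0.10 (matrix chaperones) to 0.24 (integrated stress response), where CHAC1 (2.25) and ASNS (2.09) lie farthest to the right.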

How the data were processed

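The authors aligned read pairs of 3 control and 3 knockdown libraries with STAR 2.7.6a to GRCh38.p13 with GENCODE v36 (SAMtools 1.10) and deposited counts per gene, not normalized, in 3 strand settings. The column for the strand of read 2 was used, since it held 93.9 to 94.1% of the stranded counts. Reads on no gene or on several genes (8.50 to 9.44% of uniquely mapped pairs) were left out. The study calls the libraries biological replicates.

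Here genes were kept with filterByExpr (minimum count 10), scaled by TMM and compared by edgeR's quasi-likelihood method (version 4.0.16, R 4.3.3). The model held condition alone, and p-values were adjusted after Benjamini and Hochberg over 15155 genes. Normalized counts are counts scaled to an effective library size of 32364000. The code was tested on simulated data. A call is an adjusted p under 0.05, and the study's fold change of 1.5 was a further limit.

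The members and lists were chosen with earlier results of these data known. The siRNA search and the partner ratios were added after values were seen. Named genes were the members, the 3 largest called changes per list, the 5 profiles nearest to YME1L1 and the 3 tested neighbours on either side. Symbols and transcripts came from GENCODE v44 on the same build (60419 of 60660 identifiers matched), and siRNA strands from the study's oligonucleotide list. DESeq2 1.42.0, other scalings and filters, the unstranded column, a replicate block and leaving out each library were alternatives.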

Additional observations from a re-analysis of the deposited data

Results flagged for a closer look

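Counts on the strand opposite to a member, which entered no comparison of the report, were flagged for 2 genes because the knockdown libraries were all above the control libraries. Opposite to AFG3L2 the normalized count was 420 ± 14 (SD, n = 3) in control and 502 ± 31.4 (SD, n = 3) in knockdown cells, and TUBB6 shares 837 exonic bases with AFG3L2 on that strand. The part of TUBB6 in these counts was not tested. Opposite to PHB2 it was 2.36 ± 1.38 and 8.39 ± 6.20 (SD, n = 3 each), from 1 to 16 raw counts per library. Opposite to SPG7 the knockdown libraries were all below the control libraries, at 2.53 ± 0.760 against 6.13 ± 1.27 (SD, n = 3 each). Opposite to YME1L1 the normalized counts overlapped, at 58.0 ± 9.69 and 52.9 ± 5.33, while the counts on its own strand fell as reported.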

How the results depend on the processing

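YME1L1 stayed between -2.72 and -2.62 over the 13 alternatives, AFG3L2 between -0.51 and -0.42, TIMM17A between -0.22 and -0.14 and DELE1 between 0.35 and 0.47, with the last 3 called in each. The number of members called as higher was 5 with library size alone, where OMA1 (0.28, edgeR adjusted p = 0.024) and PRELID1 (0.14, edgeR adjusted p = 0.025) were added, and 1 to 4 with each library left out in turn. Members called as lower were 2 to 3, and OPA1 was called with the unstranded column (-0.097, edgeR adjusted p = 0.039). Library size alone moved the median of all tested genes by 0.062 and gave 4701 higher and 2939 lower calls, so that 61.5% of calls were higher against 48.3% in the report (55.9% against 45.2% with the fold change limit). Pathway genes called as lower at a fold change over 1.5 were 0 to 1 with a library left out. By DESeq2, PRELID3A, DNAJA3, PDSS1 and MASTL were not called (adjusted p = 0.107, 0.086, 0.075 and 0.052). Without a filter on low counts the scaffold list had 2 higher genes, against 3 in the report. With library size alone the scaffold list had 3 lower genes, and DNAJA3 (-0.063) and MASTL (-0.047) were not called, whereas ABI1 (0.11) and ANKRD26 (0.16) were.

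The labels do not say whether same-numbered libraries were paired. Deviations of same-numbered libraries correlated at -0.015, 0.0049 and 0.057, and those of differently numbered libraries at -0.066 to 0.071. With 3 libraries per group these values cannot exclude a pairing. With a replicate block 3488 genes were higher and 3763 lower, against 3532 and 3783 without it, and no call of a member changed. Pathway genes called were then 25 higher and 21 lower, with 9 higher genes in the integrated stress response list and 5 lower genes in the fusion and fission list. The 3 libraries per group limit what small changes can be called, and OMA1, with 184 to 288 counts per library, had the widest interval of the members.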

Other observations

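The unstranded column, in which pairs on bases shared with a gene of the other strand are not counted, differed most from the column used here for PRELID1 and AFG3L2. For PRELID1, which shares 1148 exonic bases with MXD3, it held 25.4% of that column's counts in control and 25.0% in knockdown cells. For AFG3L2 it held 64.7% and 65.0%, for OPA1 93.2% and 92.7%, and for PHB2 98.5% in both groups. For YME1L1, which shares 443 exonic bases with MASTL, it held 99.7% and 99.5%.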
